A study of Mus musculus with 18 samples.

Results

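A mixture of 4 purified compounds was compared with a DMSO vehicle in RAW 264.7 cells, a mouse macrophage cell line, pooled over cells with and without lipopolysaccharide (LPS). The comparison took 12 of the 18 arrays of the study: 6 arrays of mixture-treated cells against 6 arrays of vehicle-treated cells, with LPS state as a covariate, and all probe sets entered. The members are therefore arrays chosen by their labels, and no measured value chose them. The vehicle was 0.1% DMSO in medium, and the vehicle groups held 3 arrays without LPS and 3 arrays with 10 ug/mL LPS. A DMSO percentage is recorded for the vehicle groups only, so that of the mixture groups is not known here. The mixture held amentoflavone at 0.07 uM, quercetin at 0.08 uM, chlorogenic acid at 0.2 uM and pseudohypericin at 0.03 uM, and it too was given without LPS (3 arrays) and with 10 ug/mL LPS (3 arrays). In all groups treatment lasted 8 h, was applied in the dark and was followed by 30 min of ambient light before incubation went on. The remaining 6 arrays came from cells given 10 ug/mL of an extract sub-fraction of St. John's wort (Hypericum perforatum) with or without the same LPS dose, and they are used below only as a reference. The design text calls the compounds the putative bioactive components of that fraction, so the comparison asks what the compounds do together in place of the fraction. All groups are 1 cell line, and the labels do not say whether arrays came from separate cultures, so p-values measure the spread between these arrays, which may be technical.

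Amentoflavone is a biflavonoid, quercetin a flavonol, chlorogenic acid an ester of caffeic and quinic acid, and pseudohypericin a naphthodianthrone that absorbs visible light and can act as a photosensitiser. LPS binds the Toll-like receptor 4 complex on macrophages and activates NF-kB, MAP kinase and interferon regulatory factor pathways, which switch on cytokines, prostaglandin synthesis and their own feedback inhibitors. The enzyme that makes the prostaglandin precursor in such cells is Ptgs2 (cyclooxygenase 2), and Socs3 is an inhibitor of cytokine receptor signalling through JAK kinases and STAT factors.

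The 12 arrays had median signals of 52.1 to 66.2 in the deposited scale, and arrays of the same group correlated with each other at r = 0.969 to 0.976 over 24593 probe sets kept as bright enough. Of 21 annotated macrophage markers 17 or 18 lay above the array's median on each of these arrays, with Csf1r, Cd14, Cd68 and Lyz2 among the brightest genes, while Mrc1, Marco and Mertk lay above it on 0 arrays. Of 24 markers of other cell types 1 to 5 lay above it. The summed signal of the macrophage markers was 121880 to 145750 in vehicle, 146120 to 157720 in mixture, 157190 to 165750 in vehicle with LPS and 163800 to 173670 in mixture with LPS. The summed signal of the markers of other cell types was 524 to 694, 600 to 763, 683 to 935 and 679 to 743 in the same order of groups. The macrophage sums of the unstimulated groups did not overlap, and the part of this shift in the results below was not tested.

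Replicate 1 of the vehicle group with LPS stood apart from its group. It correlated at 0.970 and 0.969 with the other vehicle arrays with LPS, which correlated at 0.975 with each other, and at 0.975, 0.974 and 0.974 with the mixture arrays with LPS. Replicate 1 of vehicle without LPS correlated at 0.976 and 0.974 with its own group and at 0.979, 0.979 and 0.971 with the unstimulated mixture arrays. This was not particular to that array. The unstimulated mixture arrays correlated at 0.970 to 0.975 with each other and at 0.969 to 0.979 with the unstimulated vehicle arrays. These values come from the same probe sets on every array and are a description of the libraries. The counts of calls, and several genes for which these arrays move a value by much, are given with and without them.

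No gene passed the test for a mixture difference in the pooled comparison of all 12 arrays. Of 45037 probe sets 0 passed an adjusted p of 0.05 in limma (0% called), and the smallest adjusted p was 0.512. At an unadjusted p under 0.05 limma gave 3071 probe sets, or 6.82% of those tested. Each gene was then represented by its brightest probe set, which left 11153 genes. Among these, 524 had a higher signal (4.70%) and 406 a lower signal (3.64%) at an unadjusted p under 0.05, and 0 passed after adjustment over all probe sets. The median difference over genes was 0.01 on the log2 scale, and the middle of the distribution ran from -0.08 to 0.09 between its quartiles. The median standard error of a gene was 0.098, and the 95% confidence interval lay inside a 2-fold change either way for 10160 genes (91.1%) and inside a 1.5-fold change for 8795 genes (78.9%). For most genes that are well above background, the data therefore bound the pooled difference to less than 2-fold. The bound is looser for dim genes: in the dimmest 10% of genes the interval lay inside 2-fold for 30.8%.

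The same test gave many calls for the plant fraction. Against the same 6 vehicle arrays, 6995 probe sets passed limma's adjusted p of 0.05 for the fraction (15.5%), 3820 of them higher and 3175 lower, which corresponded to 1751 higher (15.7%) and 1782 lower (16.0%) genes. Tested directly against each other, with no vehicle array in the fit, fraction and mixture differed at 8083 probe sets (17.9%), 4155 of them higher and 3928 lower in the fraction. Of the variance between the 12 mixture and vehicle arrays over the 11153 genes, LPS took 47.7%, the mixture 5.58% and the interaction of mixture and LPS 5.04%. The mean square of the mixture was 1.07 times the residual mean square, and that of the fraction in its own 12 arrays was 5.33 times the residual. The mixture and fraction comparisons share the vehicle arrays, so their values are given side by side and were not correlated.

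**Figure D1:**
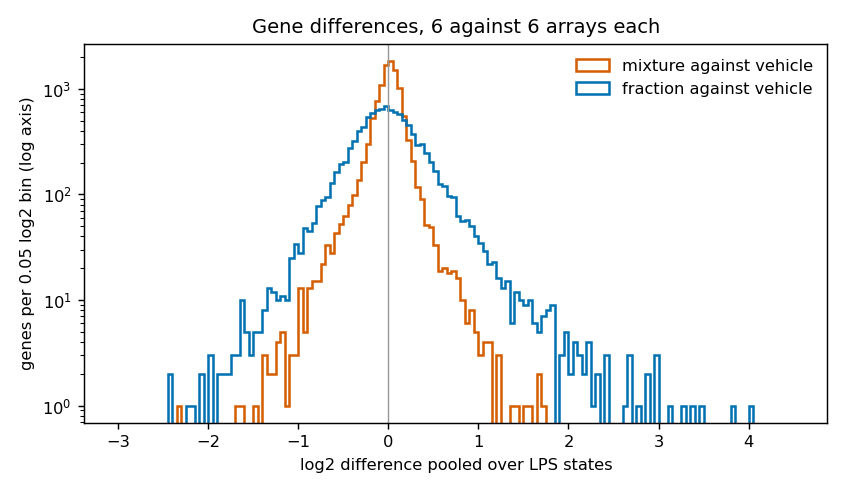
Number of genes (log axis) per 0.05-wide bin of the log2 difference from vehicle, pooled over LPS states, for the mixture (orange) and the fraction (blue), 6 arrays against 6 for each and 11153 genes. The mixture differences run from -2.33 to 1.71 and lie closer to 0, and those of the fraction run from -2.42 to 4.01.

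Since no gene passed, the genes with the smallest unadjusted p are given as values and not as changes. Among higher signals they were Rpl22, Nme1, Slco4a1, Dnaja1, Rpl10a, Pabpc1, Rpl37a and Cct2. In replicate order, Rpl22, a protein of the large ribosomal subunit, read 21747, 22302 and 24187 in vehicle, 27101, 28993 and 29678 in mixture, 25741, 25989 and 23807 in vehicle with LPS, and 30980, 29730 and 29011 in mixture with LPS. All mixture arrays lay above all vehicle arrays of the same LPS state. The pooled log2 difference of Rpl22 was 0.29 ± 0.057 (SE, 6 against 6 arrays; limma's adjusted p = 0.512), and it was 0.07 after quantile normalization of the arrays and 0.29 without the arrays numbered 1. Nme1, a nucleoside diphosphate kinase, differed by 0.32 ± 0.063 with the same adjusted p of 0.512, and its groups were 12842 to 13811 against 15777 to 16964 without LPS and 12214 to 15703 against 17106 to 18054 with LPS. Nme1 kept a difference of 0.21 after quantile normalization, while its difference in the fraction was -1.48 (limma's adjusted p = 0.00066). Slco4a1, an organic anion transporter, stood at 0.33 ± 0.071 (limma's adjusted p = 0.538) with the mixture and at -0.92 with the fraction. Dnaja1, a co-chaperone of the Hsp70 proteins, stood at 0.30 ± 0.067 (limma's adjusted p = 0.538) and at 0.24 after quantile normalization. Dimmer probe sets of the same genes had the opposite sign for Rpl22 (-0.25), Dnaja1 (-0.12 and -0.08), Cct2 (-0.10) and Pabpc1 (-0.04). Further dimmer probe sets had the same sign for Rpl22 (0.16), Cct2 (0.19), Nme1 (0.06), Slco4a1 (0.12) and Rpl37a (0.21 and 0.07).

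The lower signals with the smallest unadjusted p were those of Kif22, Map1s, Lrrc23, Oxsr1, Dus3l, Kpna6, Aasdhppt and E530011L22Rik. Kif22, a kinesin that moves chromosomes in mitosis, read 4523, 4194 and 4578 in vehicle against 3285, 3106 and 3744 in mixture, and 3197, 2732 and 3524 in vehicle with LPS against 2499, 2606 and 2542 in mixture with LPS. Its groups did not overlap at either LPS state, and the pooled difference was -0.35 ± 0.068 (limma's adjusted p = 0.512). A pair of dimmer Kif22 probe sets stood at 0.11 and 0.07, so the probe sets of this gene disagreed in sign, as did those of Aasdhppt (0.04 at a dimmer probe set) and Kpna6 (0.01). Map1s, a microtubule-associated protein, read 771, 724 and 719 against 682, 657 and 572 without LPS and 597, 531 and 573 against 393, 364 and 360 with LPS. The mixture arrays of Map1s were the lower ones in both states, and the difference was -0.41 ± 0.087 (limma's adjusted p = 0.538). The largest of these differences, -2.33 ± 0.51 for Lrrc23, came from signals of 4.76 to 93.6, which lie near or below the array medians. The probe sets of Rpl22, Rpl37a, Nme1, Slco4a1, Cct2, Kif22, Dus3l and Aasdhppt are of a kind that can match related transcripts, so which transcript they report is less certain. Over all genes, the mixture arrays lay above every vehicle array at both LPS states for 104 genes (0.932%) and below for 47 genes (0.421%).

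The measured genes of a chosen inflammatory set overlapped between mixture and vehicle at each LPS state, except for Tnf with LPS. With LPS, the overlap of Ptgs2, Socs3, Il6, Il10 and Nos2 came from replicate 1 of vehicle alone. Replicates 2 and 3 of vehicle lay above every mixture array with LPS for these genes. The share of all genes that overlap at a single LPS state was not counted, so overlap is a description. Ptgs2 read 2591, 3275 and 4575 in vehicle and 3468, 2345 and 2934 in mixture, and 19505, 23595 and 25578 in vehicle with LPS against 22190, 21868 and 21518 in mixture with LPS. The mixture and vehicle arrays overlapped in both states, and the pooled Ptgs2 difference was -0.15 ± 0.12, with a 95% confidence interval of -0.39 to 0.10 (limma's adjusted p = 0.854), and -0.37 ± 0.11 without the arrays numbered 1 (limma's adjusted p = 0.272). For the fraction the Ptgs2 difference was 0.50 (limma's adjusted p = 0.019). Ptges, the inducible prostaglandin E synthase, stood at -0.24 ± 0.20 on signals of 40.7 to 195. Its dimmer probe sets stood at -0.67 and 1.04 and so disagreed in sign. Tnf, the cytokine TNF alpha, read 5674, 7179 and 6611 in vehicle against 4200, 6159 and 6976 in mixture. With LPS, Tnf read 20311, 20097 and 19076 against 22753, 21866 and 21622, so that the mixture arrays were all higher in that state, and the pooled difference was -0.02 ± 0.10 with an interval of -0.24 to 0.20. Il1b stood at -0.21 ± 0.12 with an interval of -0.47 to 0.05. Hmox1, the heme oxygenase that answers to oxidative stress, stood at -0.003 ± 0.099 with the mixture, against 1.77 with the fraction.

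**Figure D2:**
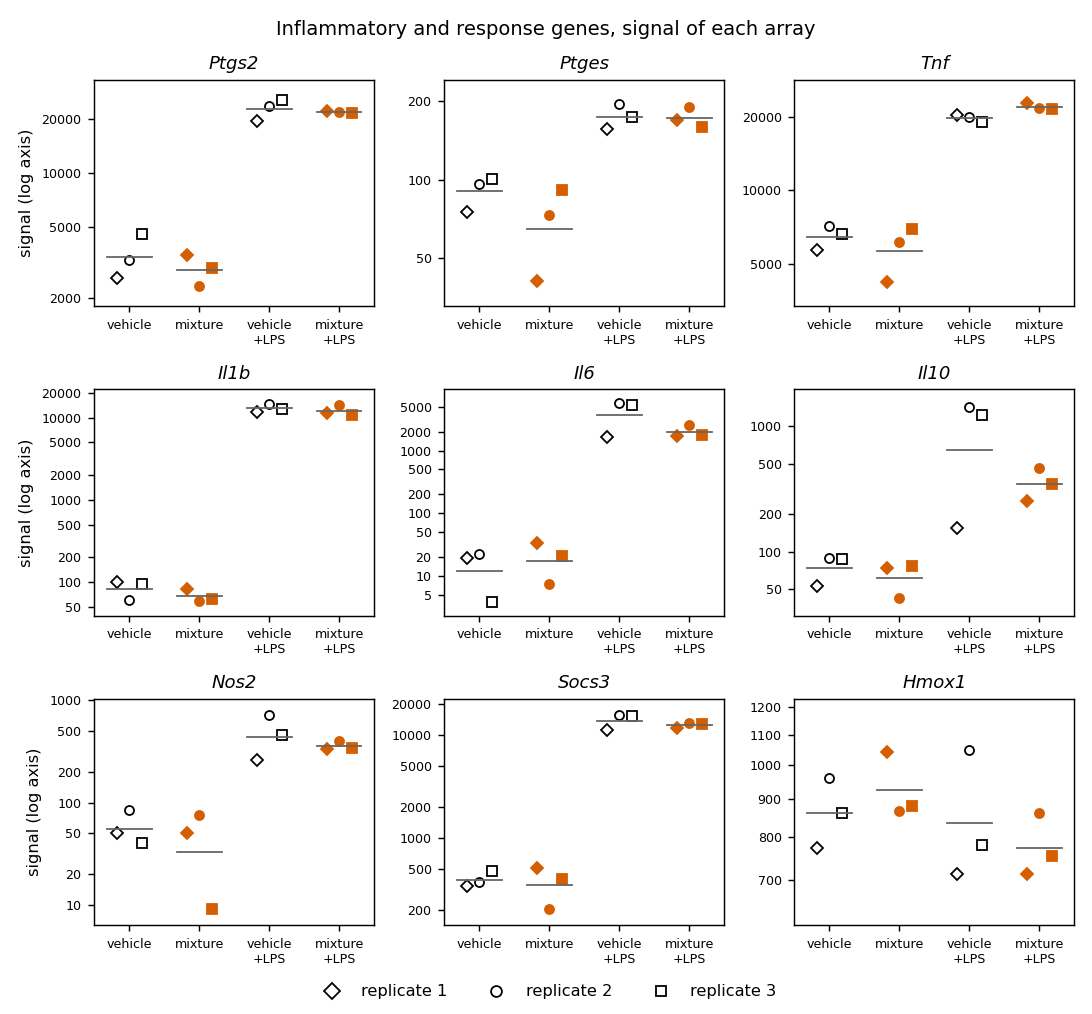
Deposited signal (log axis) of the 9 measured genes of a chosen list of inflammatory and response genes on each of the 12 arrays, by group, with open symbols for vehicle, filled symbols for mixture, shapes for the replicate number and a line at the group's geometric mean. Mixture and vehicle overlap at each LPS state except for Tnf with LPS. Replicate 1 of vehicle with LPS (diamond) lies below the other arrays of its group for each gene except Tnf, with the widest gaps for Il10 and Il6.

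Intervals were wide for the remaining members of this set. Il6 read 1654, 5657 and 5241 in vehicle with LPS against 1717, 2546 and 1786 in mixture with LPS, and under 35 on every array without LPS. Its pooled difference was -0.17 ± 0.45, with an interval of -1.12 to 0.79. With LPS the Il6 difference was -0.88 ± 0.61, and -1.46 ± 0.62 without replicate 1 of vehicle (limma's adjusted p = 0.472). Il10, an anti-inflammatory cytokine, read 153, 1435 and 1233 against 253, 465 and 349 with LPS, and stood at -0.58 ± 0.41 pooled. Without the arrays numbered 1 the pooled Il10 difference was -1.18 ± 0.24 (limma's adjusted p = 0.075). Nos2, the inducible nitric oxide synthase, stood at -0.54 ± 0.39 and read 260, 720 and 463 against 336, 399 and 345 with LPS. The Nos2 difference with LPS was -0.30 ± 0.57, and -0.68 ± 0.61 without replicate 1 of vehicle. For Il6, Il10 and Nos2 the low reading among the vehicle arrays with LPS was replicate 1. Socs3 read 11232, 15741 and 15233 against 11681, 13272 and 12844 with LPS, and stood at -0.16 ± 0.16 with an interval of -0.51 to 0.18, compared with -1.35 (limma's adjusted p = 2e-05) for the fraction. Without the arrays numbered 1 the pooled Socs3 difference was -0.41 ± 0.16 (limma's adjusted p = 0.426). Dimmer Socs3 probe sets stood at -0.39 and -0.21 with all arrays, and at -0.62 and -0.40 without those numbered 1. Nqo1, Cyp1a1 and Cyp1b1 were not above the filter on dim signals and have no value.

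No member of any of the 19 gene lists passed the test for the mixture, against a background of 0% called. Counts at an unadjusted p under 0.05 are therefore read beside the shares over all genes, 4.70% higher and 3.64% lower. Of 16 heat shock proteins and co-chaperones 8 were higher and 0 lower at that level, with a median difference of 0.15. They were Hspa4, Dnaja1, Hspa4l, Hsph1, Hspd1, Hsp90aa1, Hspa8 and Chordc1. After quantile normalization 4 members were higher at that level, beside 407 of all 11153 genes, and the median was 0.05. The list is bright, with a median at percentile 91.9 of brightness. At that level 32 of 558 genes from percentile 90 to 95, 95 of 446 from 95 to 99 and 89 of 112 above 99 were higher. The part of brightness in the list's count was not tested. Of 21 immediate early and AP-1 genes 0 were higher and 6 lower (Nr4a1, Jun, Myc, Klf6, Egr3 and Fosl2), with a median of -0.10 that was -0.07 after quantile normalization. Nr4a1, an orphan nuclear receptor induced within minutes of many stimuli, stood at -0.47 ± 0.15 and Jun, a subunit of AP-1, at -0.26 ± 0.097, and without the arrays numbered 1 they stood at -0.46 and -0.29. For comparison, the median over all genes was 0.01.

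In the lists closest to the LPS pathway 0 members passed, and more members stood below 0 than above it in 3 of the 4 lists. Of 24 SOCS family and feedback inhibitors 3 were higher (Nfkbia, Tnip1 and Nfkbie) and 4 lower (Nfkbiz, Dusp5, Dusp1 and Socs7) at an unadjusted p under 0.05, with a median of -0.12 and 6 members above 0. Nfkbie, an inhibitor that holds NF-kB in the cytoplasm, stood at 0.34 ± 0.093, and Nfkbiz, a nuclear regulator of NF-kB targets, at -0.34 ± 0.11. Without the arrays numbered 1, Nfkbie stood at 0.49 ± 0.099 (limma's adjusted p = 0.078) and Nfkbiz at -0.54 ± 0.090 (limma's adjusted p = 0.033). Of 27 Toll-like receptor and NF-kB components 2 were higher, Cd14 and Tlr2, and 2 lower, Rela and Ticam1, and 8 stood above 0. Ticam1, the adaptor TRIF that carries the interferon arm of Toll-like receptor 4 signalling, stood at -0.43 ± 0.11, and its mixture arrays lay below the vehicle arrays at both LPS states. It stood at -0.42 ± 0.12 without the arrays numbered 1. Cd14, the LPS co-receptor, stood at 0.20 ± 0.071 in the deposited scale and at -0.01 after quantile normalization. Of 26 inflammatory cytokines and chemokines 0 were higher and 0 lower at an unadjusted p under 0.05, with 10 members above 0, and of 21 JAK kinases, STAT factors and their receptors likewise 0 and 0, with 12 above 0.

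Lists in which the fraction gave many calls held none for the mixture. Among 32 type I interferon response genes the fraction lowered 22, with a median of -0.75, while for the mixture 3 were higher at an unadjusted p under 0.05 (Rtp4, Rsad2 and Irf1) and the median was 0.06. Of 19 cholesterol synthesis genes 16 fell with the fraction (median -0.83), and the mixture median was -0.08. Of 24 unfolded protein and integrated stress response genes 14 rose with the fraction (median 0.68), and the mixture median was -0.05. Over all genes 16.0% fell and 15.7% rose with the fraction. Trib3, a pseudokinase induced by the stress factor ATF4, stood at 4.01 with the fraction and at -0.30 with the mixture. It was singled out after its values were seen, and 4.01 is the highest fraction difference of all genes. In the direct comparison of fraction and mixture 23 of the interferon genes and 17 of the cholesterol genes were lower in the fraction, and 15 of the stress response genes were higher, each past limma's adjusted p of 0.05 against a background of 19.5% lower and 17.2% higher genes. Of 21 NRF2 antioxidant targets 5 were higher with the mixture at an unadjusted p under 0.05 (Txn1, Txnrd1, Pgd, Tkt and Fth1), and 0 were after quantile normalization.

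**Figure D3:**
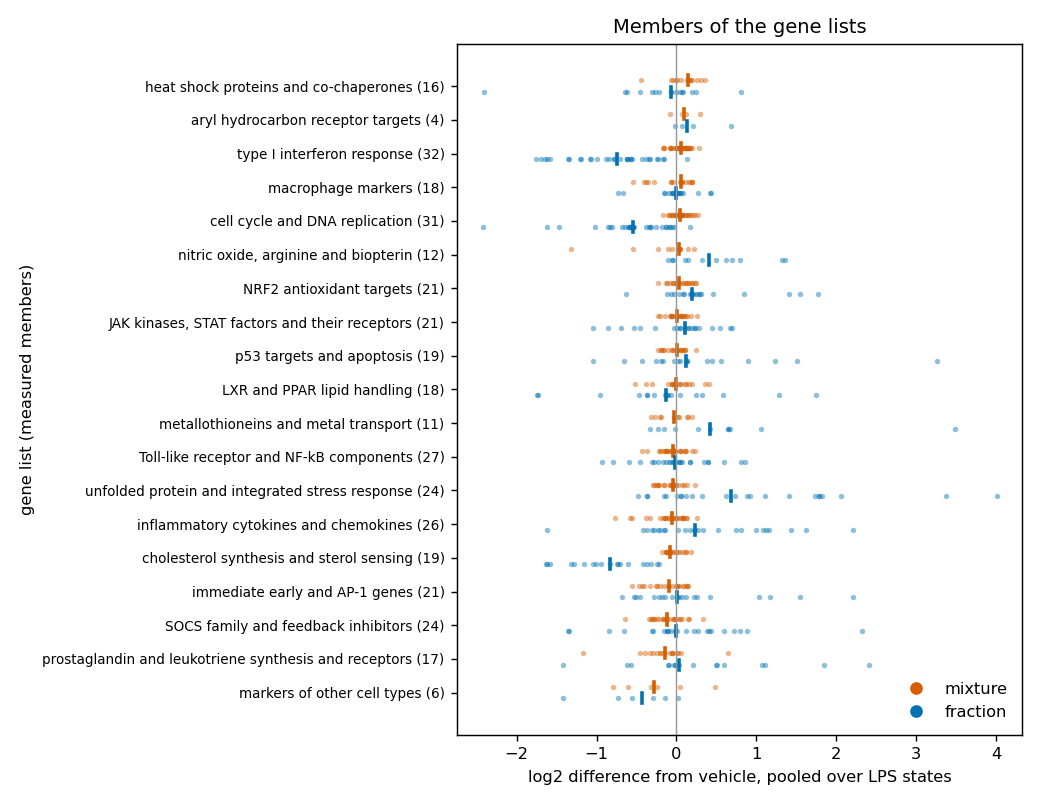
Log2 difference from vehicle, pooled over LPS states, of each measured member of the 19 gene lists, for the mixture (orange) and the fraction (blue), with a vertical bar at each median and the number of measured members in brackets. Mixture medians run from -0.28 to 0.15, and the fraction medians of the interferon, cholesterol and stress response lists stand at -0.75, -0.83 and 0.68.

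Very bright genes had higher signals with the mixture in the deposited scale. The median difference was between -0.05 and 0.02 in each brightness class up to the 95th percentile, 0.07 from the 95th to the 99th, and 0.19 in the brightest 1%, where 89 of 112 genes were higher and 0 lower at an unadjusted p under 0.05. Of those 112 genes 34 encode ribosomal proteins, and without them the median was 0.16. The 42 measured cytosolic ribosomal protein genes, a family looked at after its members' values were seen, had a median of 0.22, with 32 higher and 2 lower at an unadjusted p under 0.05. The mean signal of the brightest 1% of probe sets was 16115, 17589 and 18727 on the vehicle arrays, 19117, 19578 and 22115 on the mixture arrays, 19546, 19855 and 19157 on the vehicle arrays with LPS, and 22102, 21221 and 20891 on the mixture arrays with LPS. Mixture arrays were above vehicle arrays in each state. After quantile normalization, which gives every array the same distribution of signals, the median was 0.0042 in the brightest 1% and 0.0059 in the ribosomal family, and 0 ribosomal genes were higher and 4 lower at an unadjusted p under 0.05. That normalization sets the upper signal range of all arrays equal by construction, so these values show the size of the change in scale and do not test the difference in very bright genes. Without the arrays numbered 1 the deposited median was 0.16 in the brightest 1% and 0.19 in the ribosomal family.

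**Figure D4:**
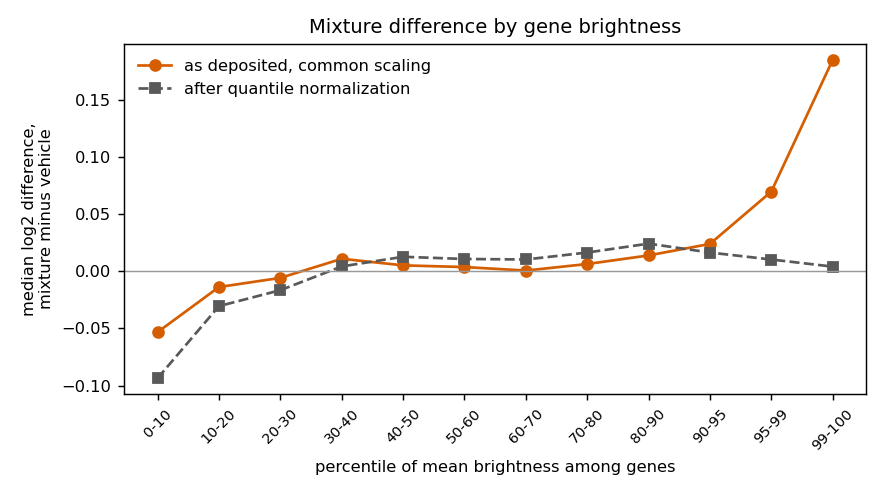
Median log2 difference between mixture and vehicle, pooled over LPS states, of genes grouped by percentile of mean brightness, as deposited (orange circles) and after quantile normalization (grey squares). The deposited values climb to 0.19 in the brightest 1%, and the quantile-normalized value there is 0.0042.

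Taken separately, the LPS states gave the same count. Without LPS, 0 probe sets passed limma's adjusted p of 0.05 (2121 at an unadjusted p under 0.05, 4.71%, smallest adjusted p 0.66), and with LPS 0 passed (2753, 6.11%, smallest adjusted p 0.166). The interaction, which asks whether the mixture difference with LPS departs from that without LPS, passed for 0 probe sets in limma, with 1891 at an unadjusted p under 0.05 (4.20%). The smallest unadjusted interaction p values among genes were those of Klhl2, an adaptor of a ubiquitin ligase, and Septin9, a filament-forming GTPase. Klhl2 read 1084, 1040 and 1095 in vehicle against 866, 685 and 651 in mixture, and 541, 615 and 546 in vehicle with LPS against 717, 688 and 645 in mixture with LPS. The mixture arrays of Klhl2 were all lower without LPS and all higher with it, and the interaction was 0.83 ± 0.16 (limma's adjusted p = 0.791). Septin9 ran the other way, from 0.44 without LPS to -0.49 with it (interaction -0.93 ± 0.19, limma's adjusted p = 0.791). Without replicate 1 of vehicle with LPS the interactions were 0.80 ± 0.17 for Klhl2 and -0.96 ± 0.20 for Septin9.

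The count of 0 depended on which arrays were taken. With LPS, leaving out replicate 1 of the vehicle arrays gave 77 probe sets past limma's adjusted p of 0.05, 19 higher (0.0422%) and 58 lower (0.129%), or 9 higher (0.0807%) and 36 lower (0.323%) genes, whereas leaving out vehicle replicate 2 gave 0 and leaving out replicate 3 gave 1. Replicate 1 is the array that correlated more with the mixture arrays than with its group, and it was left out with that known, so these calls are a description and no independent support for a difference. It lay nearer to the mean of the mixture arrays than to that of the other vehicle arrays for 73 of the 77 probe sets and for 62.3% of all kept probe sets. The 77 were called only after this array was left out, so the count of 73 follows from that choice and tests nothing. These means also rest on unequal numbers of arrays, so the 62.3% is not read as a preference. In the pooled comparison, leaving out the arrays numbered 1 in all 4 groups, those of the mixture included, gave 90 probe sets, 16 higher (0.0355%) and 74 lower (0.164%), or 10 higher (0.0897%) and 42 lower (0.377%) genes. Leaving out any single array, replicate 1 of vehicle with LPS included, gave 0 in the pooled comparison. The sets from these fits shared 10 probe sets, 13.0% of the first and 11.1% of the second. The genes of these sets described here were singled out after their values were seen, and what sets replicate 1 apart from the other vehicle arrays was not tested.

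With LPS and without replicate 1 of vehicle, Saa3, Lcn2 and Il10 were among the 36 genes past the threshold and lower. Saa3, an acute phase protein, read 1007, 5288 and 4377 in vehicle with LPS against 875, 1317 and 848 in mixture with LPS. Its log2 difference was -2.28 ± 0.19 (4.85-fold lower, 3 against 2 arrays; limma's adjusted p = 0.00017) without replicate 1 of vehicle, and -1.53 ± 0.41 (limma's adjusted p = 0.722) with it. Lcn2, which binds bacterial siderophores, read 327, 1676 and 1564 against 326, 485 and 468, and its difference was -1.95 ± 0.31 without the array and -1.18 ± 0.47 with it. Il10 gave -1.95 ± 0.31 (limma's adjusted p = 0.017) without the array and -0.91 ± 0.58 (limma's adjusted p = 0.848) with it. In Saa3 and Lcn2 replicate 1 of vehicle lay within the range of the mixture arrays, and in Il10 it lay below them.

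Dusp1, Bcl3, Cebpd and Fosl2 were also among the genes that were past the threshold and lower without replicate 1 of vehicle with LPS. Dusp1, a phosphatase that switches off MAP kinases, read 1034, 4906 and 3627 in vehicle with LPS against 972, 2035 and 1298 in mixture with LPS, a difference of -1.62 ± 0.24 (limma's adjusted p = 0.011) without replicate 1 of vehicle and -0.95 ± 0.40 with it. Bcl3, a nuclear IkB protein, gave -1.05 ± 0.14, Cebpd, a transcription factor of the acute phase response, -0.82 ± 0.087, and Fosl2, an AP-1 subunit, -1.10 ± 0.14, each past the threshold without that array. Among the higher genes were Mad2l1, a spindle checkpoint protein, at 0.46 ± 0.087 and Aspm, a spindle pole protein, at 0.79 ± 0.13. Aspm read 968, 503 and 637 in vehicle with LPS against 1024, 942 and 969 in mixture with LPS, so here too replicate 1 of vehicle read like the mixture arrays. The interaction was negative and past the threshold for 2 probe sets in this fit (0.00444%), of Il1rn and Saa3. Il1rn passed at its dimmest probe set (-2.41 ± 0.29, limma's adjusted p = 0.0077), while its brightest did not pass (limma's adjusted p = 0.803).

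In the pooled comparison without the arrays numbered 1, which sets 4 arrays against 4, the 42 lower genes included Il1rn, Plk2 and Myc. Il1rn, the antagonist of the interleukin 1 receptor, read 277, 534 and 405 in vehicle against 375, 327 and 231 in mixture, and 4641, 16926 and 16326 in vehicle with LPS against 4355, 8297 and 7436 in mixture with LPS. Replicates 2 and 3 of mixture were below replicates 2 and 3 of vehicle in both states, and the log2 difference of Il1rn was -0.92 ± 0.12 (limma's adjusted p = 0.0076), against -0.56 ± 0.27 (limma's adjusted p = 0.734) with all arrays. Plk2, a polo-like kinase, read 253, 601 and 541 against 195, 323 and 286 without LPS and 1010, 2344 and 2140 against 826, 1237 and 1298 with LPS. In Plk2 replicate 1 was the lowest array of each of the 4 groups, and the difference was -0.86 ± 0.084 without the arrays numbered 1 and -0.69 ± 0.22 with all. Myc, a transcription factor of cell growth, read 60.8, 199 and 187 against 164, 78.7 and 89.3 without LPS, where replicate 1 was the lowest of the vehicle arrays and the highest of the mixture arrays. Its difference was -1.10 ± 0.11 (limma's adjusted p = 0.0011) without the arrays numbered 1 and -0.56 ± 0.24 (limma's adjusted p = 0.712) with all.

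Mpeg1, a pore-forming protein of macrophages, fell by 0.80 ± 0.076 on the log2 scale in the same 8 arrays, the scavenger receptor Msr1 fell by 0.64 ± 0.095 and the transcription factor Irf8 fell by 0.74 ± 0.13. Other macrophage markers stood above 0 in this fit and did not pass, such as Cd14 at 0.18, Csf1r at 0.16 and Lyz2 at 0.15. The median of the 18 markers was 0.0044. Cd14, Csf1r and Lyz2 lie at percentiles 99.8, 99.4 and 99.5 of brightness, among the very bright genes that read higher with the mixture. With all arrays and after quantile normalization they stood at -0.01, 0.02 and -0.002. The complement receptors C3ar1 and C5ar1 gave -0.78 ± 0.12 and -0.75 ± 0.10, and Rgs2, which shortens signalling by G protein-coupled receptors, gave -0.93 ± 0.10. Ptgs2 passed at its dimmer probe set (-0.42 ± 0.075, limma's adjusted p = 0.043) and missed at its brighter probe set (-0.37 ± 0.11, limma's adjusted p = 0.272). With LPS, the dimmer Ptgs2 probe set read 12554, 19373 and 18699 in vehicle against 12887, 13760 and 15197 in mixture. Higher genes included Hspa4l, an Hsp110 family chaperone, at 0.54 ± 0.094, and Kif11, a kinesin of the mitotic spindle, at 0.50 ± 0.081.

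**Figure D5:**
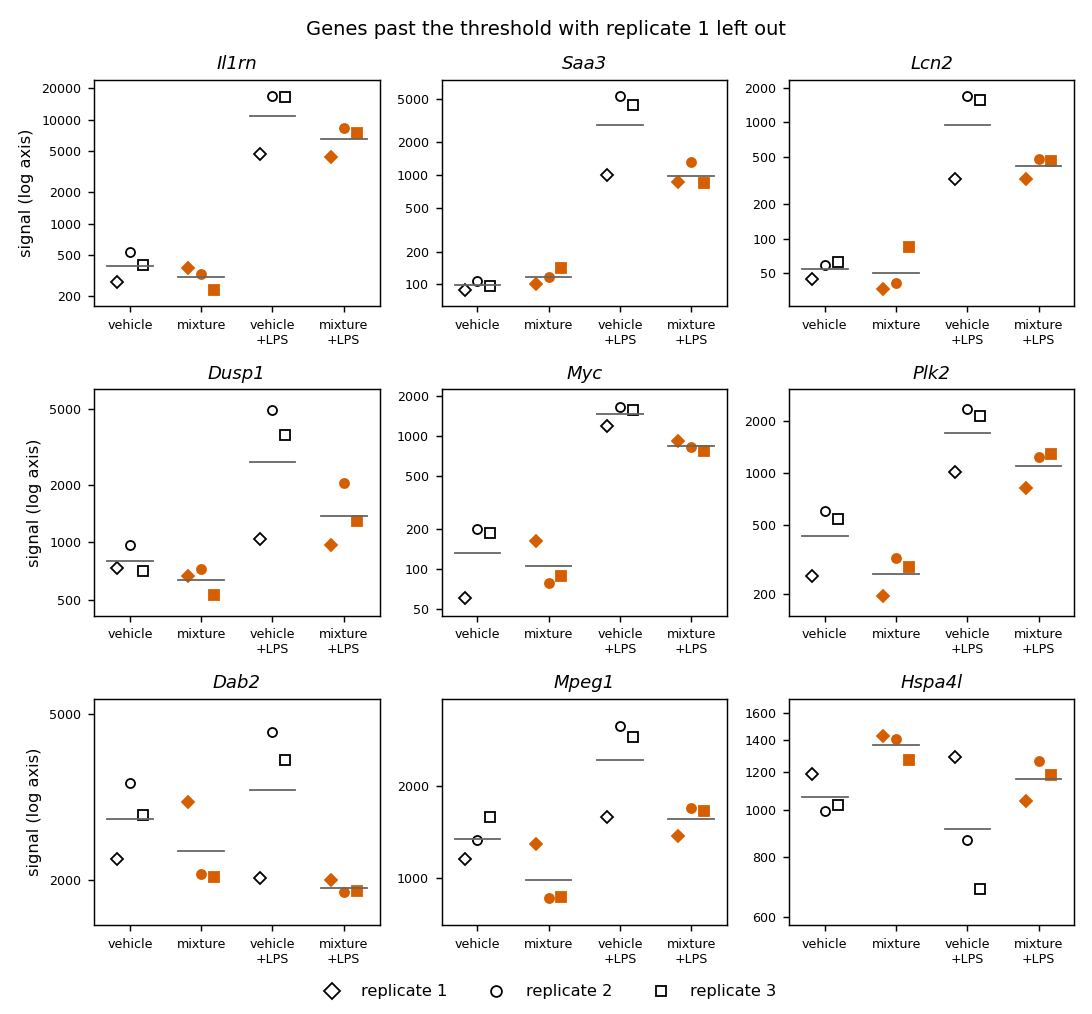
Deposited signal (log axis) on each of the 12 arrays for 9 genes that passed the threshold when replicate 1 of vehicle with LPS, or all arrays numbered 1, were left out, with open symbols for vehicle, filled symbols for mixture, shapes for the replicate number and a line at the group's geometric mean. For Il1rn, Saa3, Lcn2 and Dusp1 with LPS, the diamond of the vehicle group lies at the level of the mixture arrays, as in Saa3 with 1007 against 848 to 1317, while the other vehicle arrays lie higher. In Il1rn, Lcn2 and Dusp1 the diamond is also the lowest of the mixture arrays with LPS.

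By list, the calls in the pooled fit without the arrays numbered 1 stand beside 0.377% of all genes called lower. Lower were 3 of 21 immediate early genes (Myc, Klf6 and Fosl2) and 2 of 26 cytokines and chemokines (Csf3 and Il1rn). Also lower were 1 of 24 feedback inhibitors (Nfkbiz), 2 of 18 macrophage markers (Irf8 and Msr1) and 1 of 18 lipid handling genes (Fabp4). In the same fit 1 of 16 heat shock genes was called higher (Hspa4l), beside 0.0897% of all genes. With LPS and without replicate 1 of vehicle, 2 immediate early genes (Klf6 and Fosl2) and 2 feedback inhibitors (Bcl3 and Dusp1) were called lower. So was 1 member each of cytokines (Il10), macrophage markers (Itgam), metal transport genes (Slc39a14) and lipid handling genes (Abca1), beside 0.323% of all genes. At the brightest probe set of each gene, 0 members of the remaining lists passed in either fit. The prostaglandin, nitric oxide, JAK and STAT, interferon, NRF2 and cholesterol lists are among them. The dimmer Ptgs2 probe set, which these counts leave out, passed in the pooled fit without the arrays numbered 1. The counts of the lists are small, and lists were not compared with each other. Both fits leave out arrays whose correlations were known, so these counts are a description and no independent support for a difference.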

How the data were processed

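RNA of RAW 264.7 cells was hybridised to 18 mouse 1-colour arrays, of which 12 enter the mixture comparison. The deposited values are linear MAS5 signal intensities for 45101 probe sets per array, per the submitters' processing notes. Tested on the values, every array has a mean of 500 after trimming 2% at each end. Here 64 control probe sets were left out, signals under 1 were set to 1 (0.8% of values over the 12 arrays) and log2 was taken with no further scaling.

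Differences were fitted with limma 3.58.1 in R 4.3.3 (lmFit, eBayes with an intensity trend), with LPS state as a covariate, or with 4 group means for effects at 1 LPS state and for the interaction. P-values were adjusted by Benjamini-Hochberg over 45037 probe sets, with a threshold of 0.05. SE are limma's moderated standard errors. Gene values are those of the brightest probe set among the 24593 at or above their array's median on 3 or more of 12 arrays. Of all probe sets 34945 carry 1 gene symbol, 932 several and 9160 none. Symbols were updated through Entrez identifiers for 34741 probe sets. For 1180 genes the chosen probe set can match related transcripts, ribosomal genes among them.

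Named genes were those with the smallest p per direction (8 each where fewer than 5 passed), 5 per direction for the interaction, 12 chosen inflammatory and response genes, and up to 3 per list. The comparison, the gene lists and the named genes were chosen with earlier results of these data known. Alternatives covered scaling, floor, filters, fit, block and left-out arrays. The script was tested on simulated data. The number of arrays limits the precision.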

Additional observations from a re-analysis of the deposited data

How the results depend on the processing

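The pooled mixture count of 0 probe sets held under quantile normalization, median centring, log2 of signal plus 32, filters at the array median and at the 75th percentile, array weights, 4 group means, 18 arrays with 6 group means, 1 probe set per gene and each array left out in turn. It was 1 with the replicate block, 1 with no intensity trend and 90 without the arrays numbered 1. Without LPS the count was 4 with no intensity trend and 4 without the arrays numbered 1. With LPS it was 2 with 18 arrays and 6 group means and 50 without the arrays numbered 1, and between 0 and 77 when single arrays were left out. The interaction gave 1 probe set with no intensity trend, 2 without the arrays numbered 1, and between 0 and 2 when single arrays were left out. The cause was not tested. The fraction gave 4229 to 7957 probe sets and fraction against mixture 4749 to 8816, the lowest values being those of 1 probe set per gene, where fewer features were tested.

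The labels do not say what a replicate number shares. Deviations of arrays with the same number correlated at 0.022 to 0.171, above 0 in each of 18 pairs and over 0.1 in 5 of them, short of the rule that every pair exceed 0.1, and the main fits have no block. As a hint from the data, 11 of 12 arrays correlated best with their own number. The replicate block gave 1 call, Plk2, lower with the mixture. Of 97 named genes followed over the alternatives, 15 changed sign in some setting and 5 gained a call, each without the arrays numbered 1 (Fabp4, Hspa4l, Il1rn, Klf6 and Nfkbiz). Fits without the arrays numbered 1 hold 2 arrays per group, and gene lists and genes without these arrays, and list values after quantile normalization, were added after the data were seen. Signals near the array medians have wide intervals, so dim genes are poorly bounded.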
